A study of Mus musculus with 4 samples.

Results

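Of 37 genes that mark B cells, plasma cells and T lymphocytes, chosen by name, 36 were measured among the 18194 genes of the array, each at the probe set with the highest mean. For the T cell kinase Lck, no probe set listed it as its only gene. They comprised 9 B cell genes, 9 plasma cell and antibody secretion genes, 12 T cell genes, 5 cytotoxic genes and Ltb, a cytokine gene that several kinds of lymphocyte use. Of these, 19 reached a log2 value of 6 on at least 1 array, the level below which signal was treated as dim. The other 17 stayed under it on all 4 arrays.

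RNA came from mucosa scraped from the colon of mice of the 129S6/SvEv strain, 5 weeks old, and was read on 1 array per genotype. The 4 genotypes were VhlΔIE/Apcmin/+, in which Vhl was deleted in the intestine and Apc carried the Min mutation, VhlΔIE, with the deletion alone, VhlF/F/Apcmin/+, with floxed Vhl and the Min mutation, and VhlF/F, with floxed Vhl alone. Floxed Vhl alleles were thus common to all of them. The design names 5 VhlΔIE/Apcmin/+, 3 VhlΔIE, 3 VhlF/F/Apcmin/+ and 4 VhlF/F mice. The sources used here do not give the Cre driver, or say whether mice were pooled. The labels call the Min genotypes an intestinal tumour model. The comparisons ask how loss of Vhl and mutation of Apc alter transcript levels in the colon.

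B cells carry the antigen receptor, built from an immunoglobulin and the signalling chains CD79A and CD79B, on their surface. When activated they can become plasma cells, which shut down much of the B cell programme and secrete antibody. In the gut lamina propria most plasma cells secrete IgA, which the J chain joins into dimers and which the epithelial receptor PIGR carries into the lumen. T cells recognise antigen through a receptor that signals through the CD3 chains, and the colon holds them in the lamina propria, within the epithelium and in lymphoid follicles.

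All levels are on the RMA log2 scale of the deposited values, on which 1 unit is 2-fold. With 1 array per genotype no difference has a replicate check and no p-value is given. The labels' Vhl status matched the Vhl probe set, which was lower by 1.36 in VhlΔIE than in VhlF/F and by 1.61 with the Apc mutation, although the position of its probes relative to the deletion is not known here. Xist read 6.25 and 5.58 in the Vhl deleted arrays with and without the Apc mutation, against 11.83 and 11.37 in the Vhl floxed arrays, which follows Vhl status. The Y-linked Eif2s3y did not, at 8.80 and 8.78 in the Vhl deleted arrays with and without the Apc mutation, against 7.27 and 8.58 in the Vhl floxed arrays. The arrays thus differed in sex-linked transcripts, and the part of this in the values below was not tested. Hepatocyte genes stood out in the VhlF/F array, where Alb read 11.53 against 6.10 to 7.24 elsewhere, and the 9 hepatocyte genes had a median Vhl difference of -3.69 without and 0.24 with the Apc mutation. Vhl differences of VhlΔIE/Apcmin/+ against VhlF/F/Apcmin/+ do not use that array. The 12 epithelial markers had mean values of 12.93 and 12.88 in the VhlΔIE/Apcmin/+ and VhlΔIE arrays, against 12.82 and 12.95 in the VhlF/F/Apcmin/+ and VhlF/F arrays, and the 11 fibroblast and smooth muscle genes had median Vhl differences of -0.10 and -0.38.

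The lineages differed in how they stood by Vhl status. The 7 plasma cell and antibody secretion genes that reached 6, called plasma cell genes below, include the epithelial Pigr. Of these, 6 read higher in the Vhl deleted arrays in both Apc backgrounds, mostly by less than 2-fold, and Sdc1 read lower in both. The B cell genes that reached 6 showed no such step, and most T cell and cytotoxic genes were dim. For the 7 plasma cell genes the median difference was 0.55 without the Apc mutation and 0.52 with it. It was 0.08 and -0.19 for the 5 B cell genes, 0.09 and 0.07 for the 4 T cell genes and 0.08 and -0.02 for the 2 cytotoxic genes, against -0.02 in both backgrounds for all 11871 genes that reached 6. The medians of the B cell and cytotoxic genes without the Apc mutation, and of the cytotoxic genes with it, changed sign with the choice of floor. Of the 19 members, 1 passed 2-fold upward and 0 downward without the Apc mutation, where 2.27% of all genes tested were higher and 1.60% lower. With the Apc mutation the same counts were 1 and 0, against 2.82% and 1.52% of all genes. That 1 gene was Prdm1 in both. Past 1.5-fold there were 3 upward and 0 downward in VhlΔIE against VhlF/F (6.22% and 5.08% of all genes), and 2 and 0 in VhlΔIE/Apcmin/+ against VhlF/F/Apcmin/+ (7.19% and 5.15%). Counts this small in 19 genes lie near these shares and are no result about the members as a group. In such bulk samples, a difference in the number of cells of a type and a difference in RNA per cell cannot be told apart.

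**Figure D1:**
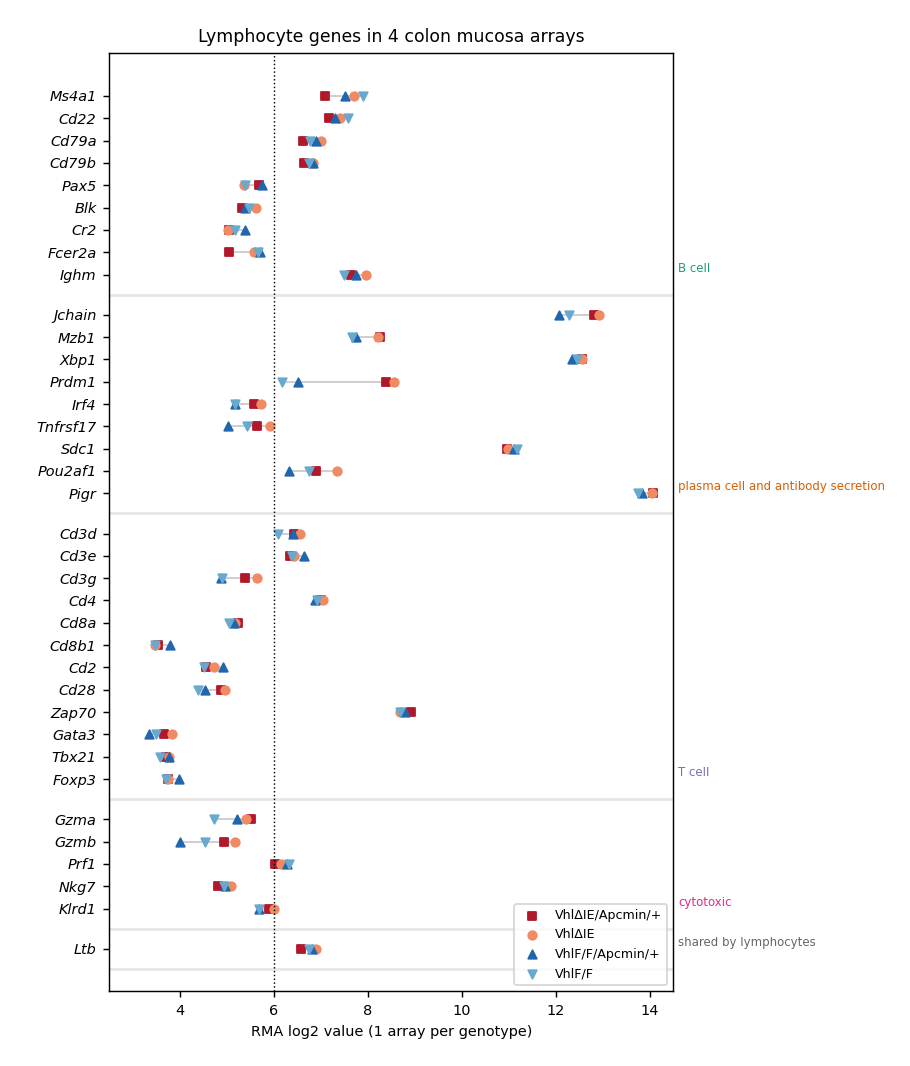
RMA log2 values (horizontal axis) of the 36 measured genes in the 4 arrays, grouped by lineage, with the dotted line at a log2 value of 6. In Prdm1 the VhlΔIE/Apcmin/+ and VhlΔIE arrays (8.39 and 8.56) lie far above the VhlF/F/Apcmin/+ and VhlF/F arrays (6.51 and 6.18), while Foxp3, Tbx21 and Gata3 stay under 4 in every array.

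Prdm1 was the member that differed most with Vhl. It encodes BLIMP-1, the transcriptional repressor that drives B cells into antibody secretion, and is also made by activated T cells and by some epithelia, such as the intestinal epithelium of suckling mice. It read 8.56 in the VhlΔIE array and 6.18 in the VhlF/F array, which is 2.38 or 5.22-fold higher. In the Apc mutant background it read 8.39 in the VhlΔIE/Apcmin/+ array and 6.51 in the VhlF/F/Apcmin/+ array, a difference of 1.88 or 3.68-fold. Both Vhl deleted arrays lay above both Vhl floxed arrays, by far more than the arrays of equal Vhl status differed from each other. The Apc mutation went with a difference of -0.17 with deleted Vhl and 0.34 with floxed Vhl. Prdm1 was measured by 1 probe set, and the cell type that gave this signal cannot be read from these arrays.

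Jchain, which encodes the joining chain of dimeric IgA and pentameric IgM, read 12.92 in the VhlΔIE array and 12.27 in the VhlF/F array, which is 0.64 or 1.56-fold higher. In the Apc mutant background it read 12.80 in VhlΔIE/Apcmin/+ and 12.07 in VhlF/F/Apcmin/+, which is 0.73 or 1.66-fold higher. Between arrays of equal Vhl status it differed by -0.11 with deleted and -0.20 with floxed Vhl. Both deleted arrays thus again lay above both floxed arrays.

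Mzb1, an endoplasmic reticulum chaperone of antibody-secreting cells, read 8.21 in VhlΔIE and 7.66 in VhlF/F, and 8.26 in VhlΔIE/Apcmin/+ and 7.74 in VhlF/F/Apcmin/+. Its differences were 0.55 and 0.52. Pou2af1, the B lineage coactivator of octamer-binding factors, read 7.35 in VhlΔIE and 6.76 in VhlF/F, and 6.89 in VhlΔIE/Apcmin/+ and 6.33 in VhlF/F/Apcmin/+. Its differences of 0.59 and 0.56 came with Apc differences of -0.46 with deleted and -0.42 with floxed Vhl, so the VhlΔIE/Apcmin/+ array, at 6.89, lay just above the VhlF/F array, at 6.76.

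Irf4 and Tnfrsf17 followed the same order below a log2 value of 6, where background compresses differences. Irf4, a transcription factor needed for plasma cell formation, read 5.74 in VhlΔIE and 5.18 in VhlF/F, and 5.57 in VhlΔIE/Apcmin/+ and 5.17 in VhlF/F/Apcmin/+. Tnfrsf17 encodes BCMA, the survival receptor of plasma cells. It read 5.92 in VhlΔIE and 5.42 in VhlF/F, and 5.64 in VhlΔIE/Apcmin/+ and 5.02 in VhlF/F/Apcmin/+.

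The other 3 genes of this group are strongly expressed by gut epithelium. Pigr is listed for its part in antibody secretion and not as a transcript of plasma cells. Pigr, the epithelial receptor that exports IgA, differed by 0.31 in the Apc wild-type and 0.24 in the Apc mutant background, and its second probe set by 0.19 and 0.26. Xbp1, the unfolded protein response factor that expands the secretory apparatus of plasma and goblet cells, differed by 0.11 and 0.20. Of its other 3 probe sets, 1 was higher and 2 lower in VhlΔIE than in VhlF/F, and all 3 were higher in VhlΔIE/Apcmin/+ than in VhlF/F/Apcmin/+. Sdc1, the heparan sulfate proteoglycan CD138 of plasma cells and epithelia, was the exception in direction, with differences of -0.21 and -0.16, and its other 3 probe sets were lower in both backgrounds too. At the probe sets used, both deleted arrays thus lay above both floxed arrays in 8 of the 9 plasma cell genes, and in Sdc1 below them. Among those that reached 6 this was 6 of 7 and 1 of 7. Of all genes tested, 27.7% lay above and 33.4% below in this way. The other 3 probe sets of Xbp1, the second of Irf4 and a further one of Sdc1 overlapped between deleted and floxed arrays.

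**Figure D2:**
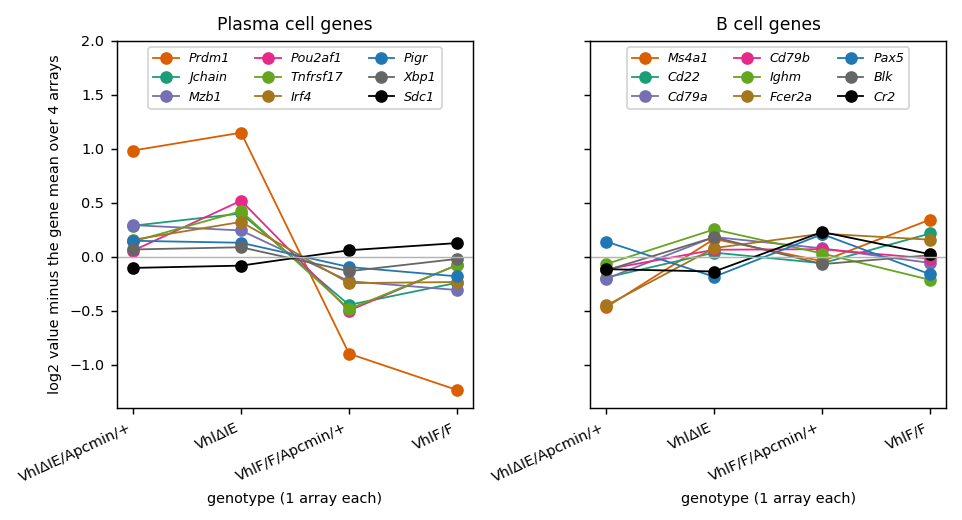
Log2 value minus the gene's mean over the 4 arrays (vertical axis) for the 9 plasma cell and 9 B cell genes by genotype, 1 array each, with lines joining the values of a gene. Of the plasma cell genes, with the epithelial Pigr among them, 8 lie above their mean in both Vhl deleted arrays and below it in both Vhl floxed arrays. Sdc1 goes the other way. Among the B cell genes only the dim Cr2 shows such a step, in the direction of Sdc1. All B cell genes but Pax5 are below their mean in VhlΔIE/Apcmin/+, and the share of all genes below their mean there was not computed.

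The promoters of Prdm1, Jchain and Pou2af1, plasma cell genes with large Vhl differences, are shown so that the letters around them can be read beside the values. Each line gives the 250 bases before the RefSeq start in GRCm38.p6, 5′ to 3′ along the gene. Capitals mark ACGTG or its reverse complement CACGT, the core letters of the hypoxia response elements that HIF, the factor VHL marks for degradation, binds.
Prdm1, chr10:44458749-44458998, minus strand: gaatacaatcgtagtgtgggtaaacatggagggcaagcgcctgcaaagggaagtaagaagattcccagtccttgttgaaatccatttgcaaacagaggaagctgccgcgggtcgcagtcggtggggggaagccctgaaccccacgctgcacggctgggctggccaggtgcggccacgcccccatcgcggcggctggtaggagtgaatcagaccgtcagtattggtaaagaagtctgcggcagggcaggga
Jchain, chr5:88527898-88528147, minus strand: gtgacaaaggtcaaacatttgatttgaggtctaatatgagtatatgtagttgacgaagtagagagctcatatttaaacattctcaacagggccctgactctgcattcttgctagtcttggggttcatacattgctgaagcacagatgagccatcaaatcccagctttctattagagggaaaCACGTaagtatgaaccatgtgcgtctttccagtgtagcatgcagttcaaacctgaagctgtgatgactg
Pou2af1, chr9:51213440-51213689, plus strand: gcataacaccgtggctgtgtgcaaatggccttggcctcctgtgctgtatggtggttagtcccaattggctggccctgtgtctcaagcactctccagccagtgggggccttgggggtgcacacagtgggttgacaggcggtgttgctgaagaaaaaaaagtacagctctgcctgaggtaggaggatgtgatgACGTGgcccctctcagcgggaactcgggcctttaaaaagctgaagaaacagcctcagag

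In the window of 250 bases before to 50 after the start, ACGTG on either strand occurred once for Jchain, with its first base at position -69, and once for Pou2af1, at -59. It was not in the Prdm1 window. Promoter windows were found for 27 of the 37 genes, and 7 of these held it (Cd3e, Jchain, Lck, Pax5, Pigr, Pou2af1 and Zap70), or 25.9%. Among 27025 genes with a window the share was 21.8%. The octamer ATGCAAAT, on either strand, was in 0 of the 27, and in 1.97% of all genes with a window. Both are matches of letters, not sites of binding.

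Transcripts of secreted antibody were set beside the plasma cell genes, although only Ighm is a member, because immunoglobulin is what these cells make. For this, 56 probe sets were taken that list only immunoglobulin genes. They were chosen after the first values were seen, and many of them also match near-identical segments, so a single segment cannot be told from its relatives. Of the 33 that reached 6, 8 passed 2-fold upward and 1 downward in VhlΔIE against VhlF/F, and 14 and 0 in VhlΔIE/Apcmin/+ against VhlF/F/Apcmin/+. Among all 24172 probe sets that reached 6, 2.04% were higher and 1.29% lower in the first of these, and 2.45% and 1.35% in the second. The medians were 0.54 and 0.84, against -0.03 for all probe sets in both backgrounds. Both deleted arrays lay above both floxed arrays in 24 of the 33 and below them in 1, against 24.9% and 34.0% of all probe sets. Some of the 33 reached 6 only on Vhl deleted arrays, as did the probe set of Ighv1-72 and Ighm, and some only on VhlF/F. For the former the floor itself favours a higher value, so these counts depend in part on it. Medians with no floor are given in the closing section.

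The IgA heavy chain gene Igha, at the probe set with the highest mean, read 14.13 in VhlΔIE and 13.59 in VhlF/F, and 14.08 in VhlΔIE/Apcmin/+ and 13.33 in VhlF/F/Apcmin/+. Over its 3 probe sets the median difference was 0.63 without and 0.87 with the Apc mutation. The lambda variable gene Iglv1 read 9.86 in VhlΔIE and 8.49 in VhlF/F, and 9.75 in VhlΔIE/Apcmin/+ and 8.15 in VhlF/F/Apcmin/+, differences of 1.37 and 1.60. In both genes the deleted arrays lay above the floxed ones with no overlap.

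Kappa chain probe sets had medians of 0.69 and 1.06 over 18. Both deleted arrays lay above both floxed arrays in 16 of these and below them in 0, against 24.9% and 34.0% of all probe sets. Some of the 18 reached 6 only on Vhl deleted arrays, where the floor itself favours this order. The kappa probe set Igkv8-30 was singled out after its values were seen. It read 12.48 in VhlΔIE and 11.60 in VhlF/F, and 12.56 in VhlΔIE/Apcmin/+ and 11.27 in VhlF/F/Apcmin/+. The brightest probe set of the entry Igk went another way, at 9.60 in VhlΔIE and 9.49 in VhlF/F, and 8.05 in VhlΔIE/Apcmin/+ and 8.86 in VhlF/F/Apcmin/+. As genes at their brightest probe set, the 4 of the immunoglobulin list that reached 6 had medians of 0.33 and 0.26. The probe set of Ighv1-72 and Ighm read 7.31 in VhlΔIE and 4.80 in VhlF/F, and 5.87 in VhlΔIE/Apcmin/+ and 4.82 in VhlF/F/Apcmin/+. For the Apc mutation, 2 of the 33 immunoglobulin probe sets were 2-fold higher and 2 lower with deleted Vhl (0.137% and 0.116% of all probe sets), and 0 higher and 2 lower with floxed Vhl (0.103% and 0.774%).

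The IgM heavy chain Ighm did not follow IgA. The probe set with its highest mean read 7.97 in VhlΔIE and 7.50 in VhlF/F, and 7.65 in VhlΔIE/Apcmin/+ and 7.75 in VhlF/F/Apcmin/+, differences of 0.47 and -0.10. Its probe sets disagreed. Of the 6 that reached 6, 3 were higher and 3 lower in each background, with medians of -0.14 and 0.18, and 1 of them was 2-fold higher with the Apc mutation, by 1.64. The 1 gamma 3 heavy chain probe set above 6 differed by -0.08 and -0.24.

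**Figure D3:**
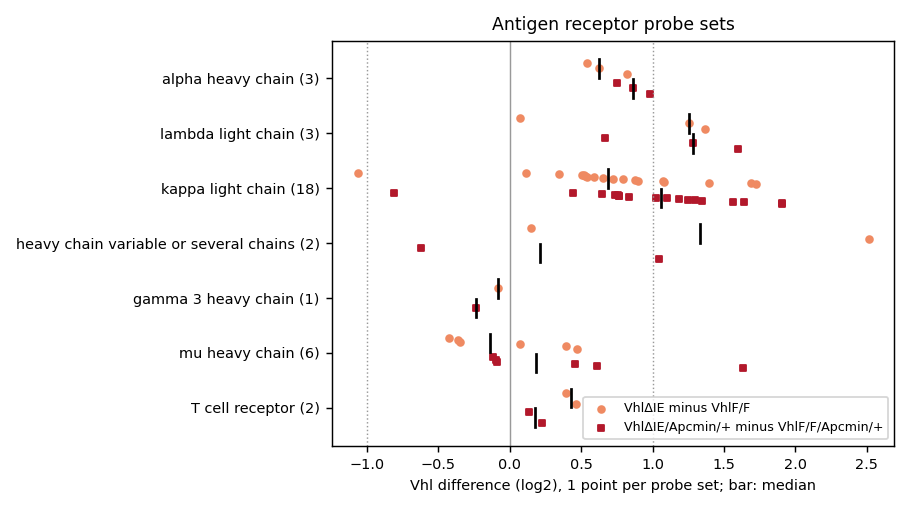
Vhl difference on the log2 scale (horizontal axis) of each antigen receptor probe set that reached 6, by chain, with the number of probe sets in brackets, black bars at the medians and dotted lines at 2-fold. Alpha, lambda and most kappa probe sets lie right of 0 in both backgrounds, and mu probe sets lie on both sides of it.

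B cell genes showed no shift with Vhl of this kind. Ms4a1, the B cell surface protein CD20, read 7.71 in VhlΔIE and 7.89 in VhlF/F, and 7.08 in VhlΔIE/Apcmin/+ and 7.51 in VhlF/F/Apcmin/+. Its differences were -0.18 and -0.43, and the deleted and floxed arrays overlapped. Cd22, the inhibitory lectin of the B cell receptor, read 7.41 in VhlΔIE and 7.59 in VhlF/F, and 7.18 in VhlΔIE/Apcmin/+ and 7.31 in VhlF/F/Apcmin/+. Its differences were -0.18 and -0.13, again with overlap.

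The signalling chains of the receptor changed sign between backgrounds. Cd79a read 7.01 in VhlΔIE and 6.77 in VhlF/F, and 6.62 in VhlΔIE/Apcmin/+ and 6.90 in VhlF/F/Apcmin/+, differences of 0.24 and -0.28. Cd79b read 6.83 in VhlΔIE and 6.75 in VhlF/F, and 6.65 in VhlΔIE/Apcmin/+ and 6.83 in VhlF/F/Apcmin/+, differences of 0.08 and -0.19. Of the 5 B cell genes that reached 6, 3 were higher in VhlΔIE than in VhlF/F, and 0 were higher in VhlΔIE/Apcmin/+ than in VhlF/F/Apcmin/+. The shares of all genes tested that were higher in these comparisons were 46.6% and 46.5%. In 0 of the 5 B cell genes did the deleted and floxed arrays separate. Over all 9 measured B cell genes both deleted arrays lay above both floxed arrays in 0 and below them in 2, the dim Cr2 and Fcer2a, where 27.7% of all genes that reached 6 lay above and 33.4% below.

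The 4 dim B cell genes stayed under 6 everywhere. Pax5, the transcription factor that fixes B cell identity, differed by -0.02 and -0.07, and Blk, a Src family kinase of B cells, by 0.17 and -0.06. Cr2, complement receptor 2 of follicular B cells and follicular dendritic cells, differed by -0.16 and -0.34. Fcer2a, the low-affinity IgE receptor of mature B cells, read 5.58 in VhlΔIE and 5.66 in VhlF/F, and 5.05 in VhlΔIE/Apcmin/+ and 5.71 in VhlF/F/Apcmin/+. The VhlΔIE/Apcmin/+ array was the lowest of the 4 for 6 of the 9 B cell genes, dim ones included. The share of all genes that read lowest there was not computed, so this count is no result about B cells. Ltb, lymphotoxin beta, which organises lymphoid follicles, was lowest there too, at 6.57, against 6.90 in VhlΔIE, 6.80 in VhlF/F/Apcmin/+ and 6.75 in VhlF/F.

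**Figure D4:**
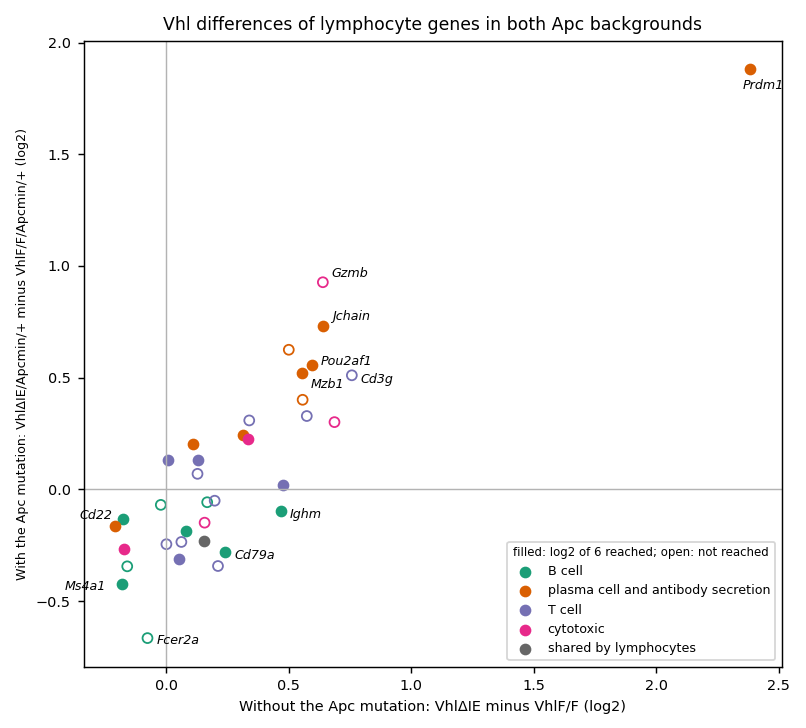
Vhl difference on the log2 scale without the Apc mutation (horizontal axis) and with it (vertical axis) for the 36 genes, coloured by lineage, with open circles for genes that stayed under a log2 value of 6. Prdm1 lies alone at 2.38 and 1.88, the plasma cell genes Jchain, Mzb1 and Pou2af1 lie between 0.52 and 0.73 in both, and B cell genes lie at or below 0 with the Apc mutation.

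Among T cell genes that reached 6, the largest Vhl difference was 0.48. Cd3d read 6.56 in VhlΔIE and 6.09 in VhlF/F, and 6.43 in VhlΔIE/Apcmin/+ and 6.41 in VhlF/F/Apcmin/+, so the difference was 0.48 in the Apc wild-type and 0.02 in the Apc mutant background. Cd3e, another chain of the complex, read 6.43 in VhlΔIE and 6.38 in VhlF/F, and 6.34 in VhlΔIE/Apcmin/+ and 6.65 in VhlF/F/Apcmin/+. Cd3g, the third chain, was dim but kept its direction, at 5.65 in VhlΔIE and 4.89 in VhlF/F, and 5.39 in VhlΔIE/Apcmin/+ and 4.88 in VhlF/F/Apcmin/+. The 3 chains, which assemble together, did not share one pattern over the arrays.

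Cd4, the coreceptor of helper T cells that macrophages may also carry at low level, differed by 0.13 in both backgrounds. Zap70, the kinase that binds the phosphorylated CD3 chains, differed by 0.01 and 0.13. Its 3 probe sets had very different signals, and the one used, at 8.68 to 8.92 over the arrays, was the only one above 6. The others differed by -0.16 and 0.11 and by 0.58 and 0.41.

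Cd8a and Cd8b1, the chains of the coreceptor of cytotoxic T cells, stayed between 5.04 and 5.23 and between 3.48 and 3.79 over the arrays. Cd2, an adhesion receptor, stayed between 4.52 and 4.91, and Cd28, the costimulatory receptor, between 4.38 and 4.95. Gata3, Tbx21 and Foxp3, the transcription factors of type 2 helper, type 1 helper and regulatory T cells, stayed under 4 on every array. The highest of the 27 bacterial control probe sets, for RNA that mouse tissue lacks, reached 5.10. Of the 17 dim members, 7 stayed at or under it on every array (Cd8b1, Cd2, Cd28, Gata3, Tbx21, Foxp3 and Nkg7), so no difference is read from these. Over all 12 measured T cell genes both deleted arrays lay above both floxed arrays in 6 and below them in 0, and among the 4 that reached 6 in 2 (Cd3d and Cd4) and 0, beside the 27.7% and 33.4% of all genes. The 6 include Cd28 and Gata3, which are among the 7 at background.

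Among cytotoxic genes, Gzmb, the granule protease granzyme B, read 5.18 in VhlΔIE and 4.54 in VhlF/F, and 4.94 in VhlΔIE/Apcmin/+ and 4.01 in VhlF/F/Apcmin/+. Its differences of 0.64 and 0.93 lay in the dim range, and only its VhlΔIE value exceeded the highest bacterial control value, 5.10. Gzma, granzyme A, read 5.41 in VhlΔIE and 4.72 in VhlF/F, and 5.52 in VhlΔIE/Apcmin/+ and 5.22 in VhlF/F/Apcmin/+. In both granzymes the deleted arrays lay above the floxed ones. Over all 5 measured cytotoxic genes they lay above in 3 and below in 1, beside 27.7% and 33.4% of all genes that reached 6.

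Prf1, the pore-forming protein perforin, went the other way, at 6.15 in VhlΔIE and 6.32 in VhlF/F, and 6.02 in VhlΔIE/Apcmin/+ and 6.29 in VhlF/F/Apcmin/+. Klrd1, the CD94 receptor of NK cells and some T cells, differed by 0.33 and 0.22 and only reached 6 in VhlΔIE, at 6.01. Nkg7, a cytotoxic granule protein, stayed between 4.82 and 5.09. The 2 cytotoxic genes that reached 6 thus lay on opposite sides.

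Of 18 probe sets that list only T cell receptor genes, 2 reached 6, both of Trav9d-3. Without and with the Apc mutation, 1 differed by 0.46 and 0.13 and the other by 0.40 and 0.23. The dim probe sets of Trav9d-3 differed in sign without the Apc mutation. The gamma chain probe sets, which mark gamma delta T cells, were dim. The one shared by Trgv4 and Trgv2 read 5.52 in VhlΔIE and 4.66 in VhlF/F, and 5.38 in VhlΔIE/Apcmin/+ and 4.81 in VhlF/F/Apcmin/+. Its floxed values lay under the highest bacterial control value, 5.10. Without and with the Apc mutation, the Trgv1 probe set differed by 0.32 and 0.17. Those of Trgv4 alone differed by 0.39 and 0.48, by 0.88 and 0.58, and by -0.06 and -0.09.

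The Apc mutation went with no 2-fold difference among the 19 members, each at its highest-mean probe set, in either Vhl background. An Ighm probe set that was not used differed by -1.17 with floxed Vhl. With deleted Vhl, where 0.202% of all genes were 2-fold higher and 0.118% lower, the median of the members was -0.13, with 3 higher and 16 lower. Past 1.5-fold, 0 were higher and 1 was lower (0.724% and 0.792% of all genes). All genes tested had a median of 0.00, with 50.5% higher. Ms4a1 differed most, by -0.63, and the 5 B cell genes had a median of -0.32. The 8 pan-leukocyte markers had a median of -0.29, with 0 of 8 higher. With floxed Vhl, where 0.118% of genes were higher and 0.901% lower, 10 members were higher and 9 lower, between -0.42 for Pou2af1 and 0.34 for Prdm1, and 0 passed 1.5-fold in either direction (1.05% and 2.36% of all genes). With floxed Vhl, 50.8% of all genes tested were higher. The Apc comparisons share arrays with the Vhl comparisons, so their values are not separate evidence.

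Markers of other leukocytes and of vessels also read higher in the Vhl deleted arrays. All 8 pan-leukocyte markers, such as Ptprc, the leukocyte phosphatase CD45, were higher in both backgrounds (medians 0.62 and 0.34). Of all genes tested, 46.6% were higher without and 46.5% with the Apc mutation. Ptprc read 9.87 in VhlΔIE and 9.29 in VhlF/F, and 9.52 in VhlΔIE/Apcmin/+ and 9.25 in VhlF/F/Apcmin/+. The 14 macrophage and dendritic cell markers shifted by medians of 0.73 and 0.36, with Itgam at 2.18 and 1.25, C1qb at 1.22 and 0.52 and Mpeg1 at 1.11 and 0.71. The 10 endothelial markers shifted by medians of 1.20 and 0.89, with Emcn at 2.25 and 2.00, Flt1 at 1.46 and 1.69, Tek at 1.43 and 0.97, Plvap at 1.39 and 1.38 and Kdr at 1.18 and 1.27. Itgam, Cdh5, Tek and Tie1 reached 6 only on Vhl deleted arrays. With the Apc mutation the median of plasma cell genes, 0.52, lay above that of the pan-leukocyte markers, and without it slightly below. How far the content of leukocytes in the scrapings accounts for the lymphocyte values was not tested.

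Signalling molecules that act behind the receptors formed further lists. Of 12 B cell receptor signalling genes that reached 6, 8 were higher in VhlΔIE than in VhlF/F, and 6 in VhlΔIE/Apcmin/+ than in VhlF/F/Apcmin/+, with medians of 0.07 and 0.02 and none at 2-fold. Blnk, the adaptor of the B cell receptor, differed by -0.65 and -0.70. It read 11.02 to 12.05 over the arrays, far above every B cell member, and the cells that gave this signal cannot be read from these arrays. Of the 4 T cell receptor signalling genes that reached 6, all were higher in both backgrounds (medians 0.51 and 0.25). Beside both lists, 46.6% of all genes tested were higher without and 46.5% with the Apc mutation. Over all 14 T cell receptor signalling genes measured, both deleted arrays lay above both floxed arrays in 6 and below them in 2. For all genes that reached 6 these shares were 27.7% and 33.4%. Icos, the costimulator of follicular helper and regulatory T cells, read 6.66 in VhlΔIE and 5.86 in VhlF/F, and 6.35 in VhlΔIE/Apcmin/+ and 5.89 in VhlF/F/Apcmin/+. Icos thus reached 6 only on the Vhl deleted arrays, so the floor itself favours a higher value for it. Ptprc, which leukocytes of every kind carry, belongs to this list as well.

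Factors for B cell survival and class switching had medians of 0.18 and 0.00 over 4 genes. Tnfsf13b, the B cell survival factor BAFF, differed by 0.20 and 0.41. Aldh1a1, which makes retinoic acid, a signal for IgA switching, differed by -1.29 and -0.40, the first being the 1 gene of this list past 2-fold.

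Genes of homing and follicle organisation had medians of 0.30 and 0.18 over 13. The IgA plasma cell homing pair read higher in both deleted arrays. Ccl28, the epithelial chemokine that draws IgA plasma cells to the colon, read 11.68 in VhlΔIE and 11.18 in VhlF/F, and 11.78 in VhlΔIE/Apcmin/+ and 11.39 in VhlF/F/Apcmin/+. Its receptor gene Ccr10, which reached 6 only on the Vhl deleted arrays, differed by 0.44 in each background. Madcam1, the vessel address molecule for gut lymphocytes, differed by 0.63 and 0.82. These 3 genes were singled out after their values were seen.

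Follicle genes went several ways. Cxcl13, the chemokine that organises B cell follicles, differed by 0.43 and 0.18. Ccl20, which the epithelium over follicles makes, was lower by 1.06 without the Apc mutation and differed by -0.53 with it. S1pr1, the receptor for lymphocyte egress that endothelium also makes, differed by 1.15 and 0.53. Glycam1, a mucin of high endothelial venules of lymph nodes, read 7.07 in VhlF/F/Apcmin/+ and 5.06 to 5.36 elsewhere.

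Of the 6 intraepithelial and innate lymphocyte genes that reached 6, 6 were higher without and 4 with the Apc mutation, with medians of 0.36 and 0.29. Of all genes tested, 46.6% and 46.5% were higher in these comparisons. Il7r reached 6 only in VhlΔIE, so the floor itself favours a higher value for it, and Cd7 missed 6 only in VhlF/F. Itgae, the integrin CD103 of intraepithelial lymphocytes, read 6.84 in VhlΔIE and 6.12 in VhlF/F, and 6.80 in VhlΔIE/Apcmin/+ and 6.12 in VhlF/F/Apcmin/+. Id2, a transcriptional regulator that innate lymphoid cells and also epithelium express, was higher by 1.44 and 1.12. Markers of the epithelium over follicles had medians of 0.63 and 0.64 over 5 genes but no shared direction. Marcksl1 was higher by 2.73 and 2.03 and Ccl9 differed by 0.63 and 1.28, while Spib, a factor of M cells and B cells, differed by -1.15 and -0.68, and Gp2, the M cell receptor, stayed at or under 4.19.

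**Figure D5:**
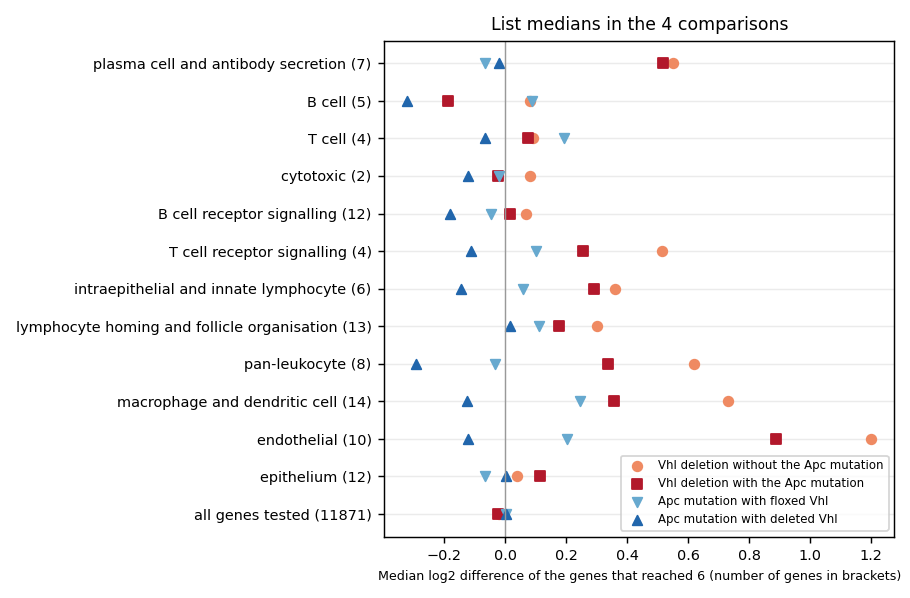
Median log2 difference (horizontal axis) of the genes of each list that reached 6, with their number in brackets, in the 4 comparisons. Plasma cell genes lie at 0.55 and 0.52 for Vhl without and with the Apc mutation, B cell genes lie at 0.08 and -0.19, and the largest Vhl medians shown belong to endothelial markers.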

How the data were processed

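Colon mucosa RNA of 4 genotypes was measured on 1 Affymetrix array each. The authors deposited log2 values, for which the submitters' processing notes name affy and RMA, in versions that the sources used here do not give. Quantile normalization, a step of RMA, hides shifts of the whole transcriptome. Probe sets were named by the platform annotation of GEO (34958 of 45101 with 1 symbol, 932 with several, 9211 with none listed). A gene took its highest-mean probe set and was counted where it reached a log2 value of 6 on at least 1 array (11871 of 18194). Differences are 1 array minus another, counted at 2-fold. No test was run, since a fit over the 4 arrays would take different genotypes as replicates. The members and lists were chosen with earlier results of these data known, and text names all members and, from other lists, up to 5 genes at least 2-fold apart, plus some chosen after their values were seen. Counting was tested on simulated data. Promoters are from RefSeq, GRCm38.p6. The tools were Python 3.11.15, pandas 2.3.3, numpy 2.4.6, matplotlib 3.10.9, R 4.3.3 and limma 3.58.1. Alternatives were other floors, values under 6 raised to 6, the mean over probe sets, no _x_at or _s_at probe sets, cyclic loess and 1.5-fold.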

Additional observations from a re-analysis of the deposited data

Results flagged for a closer look

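Several members above a log2 value of 6 differed in opposite directions in the 2 backgrounds of a contrast, each by at least 0.1. This difference between backgrounds was not tested, since each genotype has 1 array. For Vhl deletion, Cd79a differed by -0.28 with and 0.24 without the Apc mutation, a gap of -0.52, and Ltb by -0.23 and 0.15, a gap of -0.38. For the Apc mutation, Cd79a differed by -0.39 with deleted and 0.14 with floxed Vhl, which is the same gap of -0.52. Ighm differed by -0.32 and 0.24, a gap of -0.56, Prdm1 by -0.17 and 0.34, a gap of -0.50, and Cd3d by -0.13 and 0.33, a gap of -0.46. The Ighm gap is that of its highest-mean probe set and does not hold across its probe sets. Over the 6 that reached 6, the gap was positive in 4 and negative in 2, with a median of 0.57. All of these gaps come from the same 4 arrays.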

How the results depend on the processing

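Prdm1 stayed past 2-fold under every alternative tried. The counts of members past the threshold moved only at 1.5-fold, where 3 and 2 members were higher for Vhl deletion without and with the Apc mutation, and 1 was lower for the Apc mutation with deleted Vhl. The other 61 of 64 such counts stayed within 1.5 times, and 128 of 135 list medians moved by less than 0.2. The cause of the others was not tested. The cytotoxic medians rest on 2 genes. Without and with the Apc mutation they were 0.33 and 0.22 with no floor and with the mean over probe sets, and -0.17 and -0.27 for genes with a mean of at least 6. At a floor of 7 the T cell median of the difference between backgrounds was 0.0633, against -0.18 at the floor of 6. The B cell median for Vhl deletion without the Apc mutation was -0.02 with no floor, so it has no settled sign. Other medians near 0 changed sign too. For the Apc mutation with floxed Vhl, the B cell median was -0.07 at a floor of 7 (0.09 at 6). With deleted Vhl, the T cell median was 0.10 at a floor of 7 (-0.06 at 6), and the plasma cell median was 0.02 with cyclic loess (-0.02 as deposited). The cytotoxic median for Vhl deletion without the Apc mutation was -0.08 with values raised to 6. Immunoglobulin alternatives were chosen after seeing the data. With no floor the medians were 0.29 and 0.49 for Vhl deletion without and with the Apc mutation. Without cross-hybridising probe sets 3 and 6 of 16 were 2-fold higher, and 1 higher and 1 lower for the Apc mutation with deleted Vhl. With a single symbol 5 were higher for Vhl deletion without the Apc mutation, and 1 lower for the Apc mutation with deleted Vhl. At a floor of 7, 0 were lower in VhlΔIE than in VhlF/F, 1 lower for the Apc mutation with floxed Vhl and 1 higher with deleted Vhl, and cyclic loess also gave 1 there. The labels give no replicate numbers, so no fit with a replicate block was made. The Vhl differences within each Apc background stand side by side in place of it.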
